A study of Homo sapiens with 30 samples.

Results

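Metallothioneins are the small metal-binding proteins of the cell, and 5 of their genes, MT1X, MT2A, MT1E, MT1F and MT1G, were followed here through 30 RNA libraries. The genes were selected on their measured levels, the family being low in a line in which GABARAPL2 was targeted, so their values in that line are a description and carry no test. Of the 5 genes, 4 were among the 16975 genes of the deposited table and MT1E was not listed in it. MT1X and MT2A had enough reads to be tested across lines, with 3835 and 6152 reads in all, while MT1F had 114 and MT1G 46.

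The libraries are 3' RNA-seq, which reads a tag near the end of each transcript, from untreated HEK293 (human embryonic kidney) derivatives. The 10 groups of 3 were the parental HEK line, HEK28, which secretes coagulation factor VIII, and 8 CRISPR knockout lines made in HEK28, so every knockout and its HEK28 control carry the factor VIII trait and the parental line does not. The targeted genes were CALR and CANX, which help glycoproteins fold in the endoplasmic reticulum; LMAN1 and MCFD2, the subunits of a cargo receptor for factor VIII there; GABARAP, GABARAPL1 and GABARAPL2, ubiquitin-like proteins of the autophagosome; and ATG7, the enzyme that starts their coupling to lipid. Nothing in the labels says that replicates came from separate cultures or clones, so a p-value here speaks only of how these samples varied, and that variation may be technical. The sample titles give all 3 libraries of a knockout the same number, whose meaning they do not state. Each knockout may therefore be 1 clone, and a difference between lines cannot then be told apart from one between clones.

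Metallothioneins hold zinc and copper through clusters of cysteines, buffer free zinc and bind toxic metals such as cadmium. Their genes stand side by side on chromosome 16 and are switched on by MTF1, a zinc-sensing transcription factor that binds metal response elements in their promoters; glucocorticoids and oxidants also induce several of them. MT2A and MT1X are the members most widely expressed in human cells, and the zinc exporter SLC30A1 is the best known MTF1 target outside the family.

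In GENCODE 29 (GRCh38) all 5 genes are protein-coding genes of chromosome 16. MT2A spans 56608199 to 56609497, MT1E 56625475 to 56627112, MT1F 56657694 to 56660698 and MT1X 56682424 to 56684196, all on the plus strand, and MT1G spans 56666731 to 56668065 on the minus strand. The members resemble each other closely in sequence, and reads shared between them or with pseudogenes cannot be told apart in these values. RefSeq (GRCh38.p14) promoter entries matched 2 of the 5 members, and both are shown because they carry the element through which metals act on these genes. The 250 bases before the start are printed for MT2A, chr16:56608334-56608583, and MT1X, chr16:56682220-56682469, both on the plus strand, with capitals marking each match to the core of the metal response element, TGCACNC or TGCGCNC on either strand.
MT2A: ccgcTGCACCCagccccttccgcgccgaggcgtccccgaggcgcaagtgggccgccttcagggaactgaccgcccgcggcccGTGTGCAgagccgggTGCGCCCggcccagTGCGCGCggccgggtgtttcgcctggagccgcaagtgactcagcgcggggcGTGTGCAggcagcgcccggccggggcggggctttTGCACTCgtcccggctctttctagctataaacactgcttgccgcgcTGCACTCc
MT1X: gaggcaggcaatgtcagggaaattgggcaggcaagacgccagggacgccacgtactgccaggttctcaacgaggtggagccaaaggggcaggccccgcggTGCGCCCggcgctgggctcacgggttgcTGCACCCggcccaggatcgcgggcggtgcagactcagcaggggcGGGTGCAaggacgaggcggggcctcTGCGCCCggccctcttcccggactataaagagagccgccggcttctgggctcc
The MT2A window held 7 matches and the MT1X window 4. At least 1 match was found in 24.8% of 35116 promoter windows of this length, as many as 4 in 0.37% and as many as 7 in 0.03%. Both windows were rich in G and C, at 73.2% for MT2A and 70.0% for MT1X against a median of 58.0%. The SLC30A1 window held 1 match and the MTF1 window none of these letters. RefSeq places the starts downstream of the GENCODE 29 gene starts given above, so the MT2A window lies inside the GENCODE span of the gene and the MT1X window overlaps its beginning. A match is a description of the sequence and not a shown binding site.

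Library depth ran from 159897 to 4162273 reads in listed genes, with a median of 647949. The HEK28 group was uneven: replicates 1 and 2 lay at 86.1 and 97.3 on the first principal component (20.3% of the variance) and replicate 3 at -14.2, with the knockout libraries between -45.9 and 36.5. The 3 GABARAPL2 libraries, at -45.9, -45.1 and -37.9, were the lowest of all 30 on this axis, followed by CANX replicate 3 at -33.8. Its part in their metallothionein levels was not tested. Predicted transcripts that GENCODE 29 does not list took 2.97% and 4.09% of the reads of HEK28 replicates 1 and 2 and 0.149% of those of replicate 3. Their share was 0.828% to 1.06% in the parental line and 0.0315% to 1.31% in the knockouts. Summed levels of neuronal markers (5 of 7 genes with reads read back) ran from 2019 to 2140 CPM (reads per 1000000 reads in listed genes) in the GABARAPL2 line and from 1063 to 2514 in the other 27 libraries. Those of kidney progenitor markers (7 of 8) ran from 159 to 182 and from 153 to 322. In bulk RNA, fewer cells that express a gene and less RNA per cell cannot be told apart.

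MT1X was lowest in the GABARAPL2 knockout line. Its log2 levels there were 3.79, 3.48 and 3.13, against 3.91, 4.69 and 4.98 in the ATG7 line, the next lowest. All 3 GABARAPL2 libraries lay below all 27 others, which held for 0.266% of the 11295 genes tested. These log2 values are the authors' and can be compared between libraries for 1 gene only. The divisor that each gene carries in them was not its own length: across genes its Spearman rho with the gene's exonic length was 0.008, and 936 of the first 1000 divisors were the lengths of other genes taken in genome order.

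In the other 7 knockouts MT1X had a lowest, median and highest log2 level of 3.91, 5.48 and 6.40. HEK28 had 5.60, 5.86 and 5.38 and the parental line 4.80, 4.50 and 5.37. The GABARAPL2 line, at 3.47 ± 0.33 (SD, n = 3), was lower than the mean of the other 7 knockouts by 1.93 on the log2 scale, a ratio of 3.80-fold. It was lower than HEK28 by 2.15 (log2 difference -2.15, 4.43-fold) and its difference from the parental line was -1.42. In CPM, 247 of 6352003 reads gave 38.9 CPM (95% Poisson interval 34.2 to 44.0) in the GABARAPL2 line, and HEK28 had 165 (140 to 193). Intervals of this kind cover counting error only and leave out variation between libraries. The libraries also carry no stated molecular identifiers, so reads copied from 1 molecule cannot be told apart.

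MT2A was low in the same line but not alone there. Its log2 levels were 6.48, 6.83 and 6.30 in the GABARAPL2 line, 6.53, 6.45 and 6.26 in the ATG7 line, and 6.17, 6.08 and 7.18 in HEK28. These 3 groups overlapped, and 5 of the 27 other libraries lay below the highest GABARAPL2 library. The mean of the GABARAPL2 line, 6.54 ± 0.27 (SD, n = 3), differed from that of the other 7 knockouts by -0.85 (1.80-fold lower). Against HEK28 the difference was 0.058, so the description of the family as low in this line held against HEK28 for MT1X and not for MT2A. HEK28 replicates 1 and 2 set that mean, and replicate 3 lay above all 3 GABARAPL2 libraries. Against the parental line, at 7.53, 7.18 and 7.02, the difference was -0.71.

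**Figure D1:**
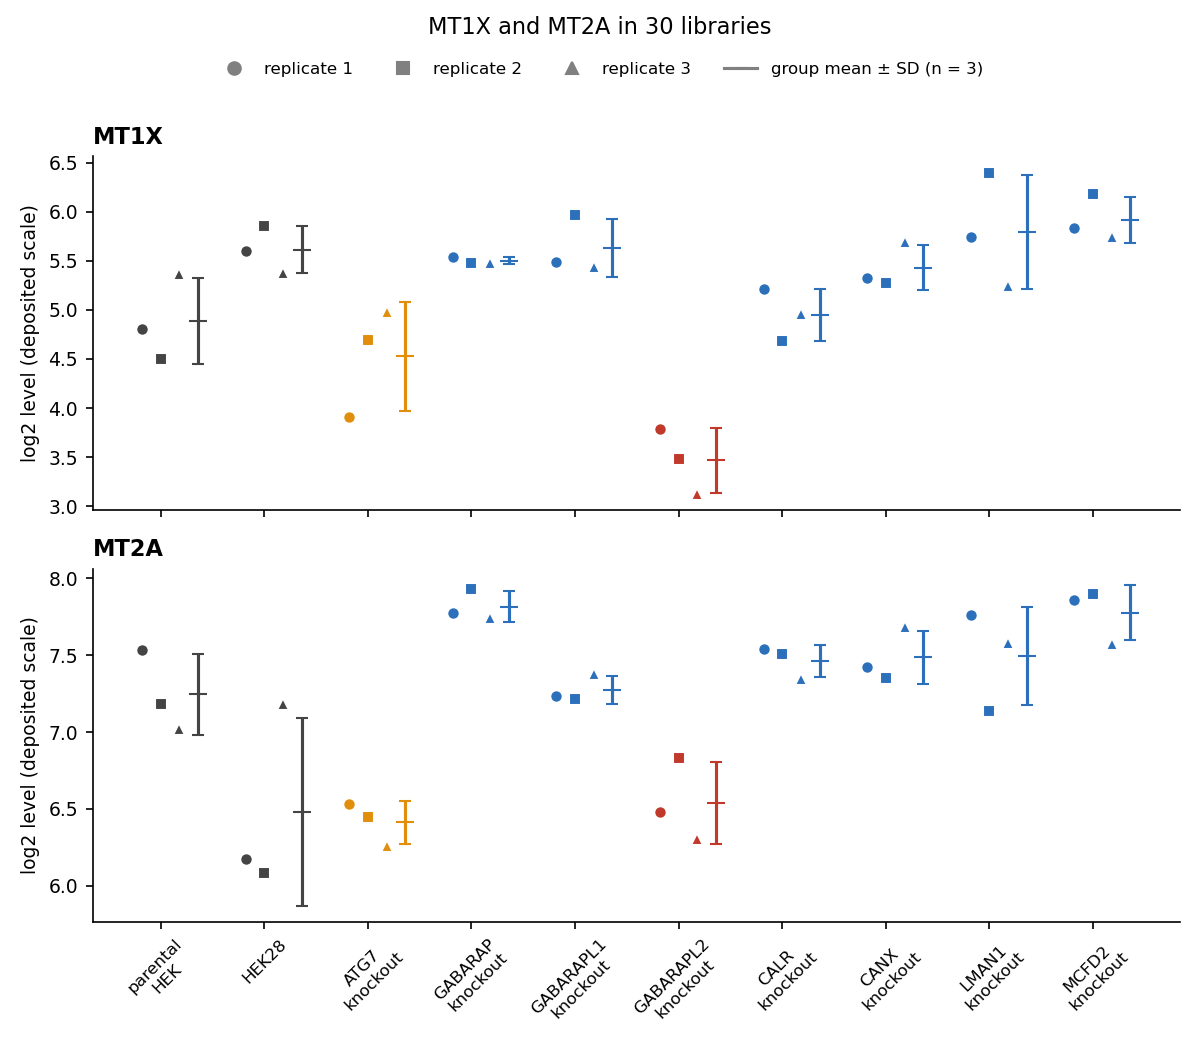
Log2 level (deposited scale) of MT1X, upper panel, and MT2A, lower panel, in 30 libraries. Symbols are replicates 1 to 3 and bars are the group mean ± SD (n = 3); in MT1X the GABARAPL2 libraries (3.13 to 3.79) sit below all others, and in MT2A they share the low range with the ATG7 line (6.26 to 6.53) and HEK28 replicates 1 and 2.

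GABARAPL2 itself, the targeted gene, was read in its own line at 6.28 ± 0.46 (SD, n = 3) from 316 reads. HEK28 had 5.94 ± 1.62, and the other groups had means from 6.59 to 7.33 and, in the CANX line, 7.38. A 3' tag need not lie in the edited part of a gene, so this level does not check the edit.

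Across all 10 groups MT1X means rose in the order GABARAPL2, ATG7, parental HEK, CALR, CANX, GABARAP, HEK28, GABARAPL1, LMAN1 and MCFD2. The step from GABARAPL2 to ATG7 was 1.06, or 2.33 times the pooled SD of those 2 groups, and that from CALR to CANX was 0.48, or 1.96 times. Every other step between neighbours was under 0.4 and within their pooled SD. For MT2A the order was ATG7, HEK28, GABARAPL2, parental HEK, GABARAPL1, CALR, CANX, LMAN1, MCFD2 and GABARAP. Its steps from GABARAPL2 to the parental line (0.71, 2.66 pooled SDs), from GABARAPL1 to CALR (0.19, 1.92) and from LMAN1 to MCFD2 (0.28, 1.09) exceeded the pooled SD, and the others did not. The group means had an SD of 0.74 for MT1X and 0.53 for MT2A, against 0.36 and 0.27 within groups.

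The 2 genes moved together only in part. Over 30 libraries their log2 levels had a Pearson r of 0.471, and over the 27 libraries without the GABARAPL2 line 0.280. The r was 0.565 over the 21 libraries of the other 7 knockouts and 0.488 over the 9 group means without GABARAPL2. Within groups, with group means removed, it was -0.315. These are descriptions over libraries that share lines and depth. The log2 difference MT1X minus MT2A, whose zero is arbitrary, was lowest in the GABARAPL2 line (-3.35 to -2.69) and highest in HEK28 (-1.80 to -0.23). The parental line (-2.73 to -1.65) and the CALR line (-2.83 to -2.33) overlapped with the GABARAPL2 line. HEK28, whose low of -1.80 was replicate 3, overlapped with the parental line too. It also overlapped with the ATG7 (up to -1.28), GABARAPL1 (-1.25), LMAN1 (-0.74) and MCFD2 (-1.72) lines.

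The ATG7 knockout line had low MT2A and low MT1X, in a comparison that leaves the GABARAPL2 line out of both sides. ATG7 acts upstream of all GABARAP proteins in the coupling pathway, whose part in these levels was not tested. The GABARAP and GABARAPL1 lines lay above the ATG7 line, with means of 7.81 and 7.28 in MT2A and 5.50 and 5.63 in MT1X. The 3 ATG7 levels of MT2A, 6.53, 6.45 and 6.26, lay below all 18 libraries of the other 6 knockouts, whose lowest, an LMAN1 library, was at 7.14. Such a separation held for 0.761% of genes tested. The log2 difference was -1.14 (SE 0.18, 2.20-fold lower, limma with Benjamini-Hochberg adjustment, adjusted p = 0.000744), where 1.39% of genes were called lower. It passed under each of the 27 alternatives, with differences from -1.20 to -1.06.

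MT1X, at 3.91, 4.69 and 4.98 in the ATG7 line, overlapped with the other 6 knockouts, where CALR replicate 2 was at 4.68. Its log2 difference was -1.01 (SE 0.23, 2.02-fold lower, limma adjusted p = 0.0198). The call rested on ATG7 replicate 1, a library of 259647 reads with 13 of MT1X: without it the difference was -0.70 (adjusted p = 0.306). Over the alternatives the adjusted p ran from 0.0108 to 0.306. Among the knockouts both genes were lowest in the ATG7 and GABARAPL2 lines, the latter as a description. MT1X was at 4.53 ± 0.55 and 3.47 ± 0.33 there, and MT2A at 6.41 ± 0.14 and 6.54 ± 0.27 (SD, n = 3). HEK28, which is not a knockout, was as low in MT2A, at 6.48 ± 0.61.

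No call was made for either gene in the other 6 lines of this comparison. Genes called in either direction made up 2.63% in CALR, 1.47% in CANX, 2.38% in GABARAP, 0.319% in GABARAPL1, 1.08% in LMAN1 and 4.75% in MCFD2. The 12 log2 differences ran from -0.52 for MT1X in the CALR line to 0.61 for MT1X in the MCFD2 line, and 4 of the 12 had an unadjusted p under 0.05. These were MT1X in CALR (-0.52, limma adjusted p = 0.283) and MCFD2 (0.61, 0.136), and MT2A in GABARAP (0.50, 0.159) and MCFD2 (0.45, 0.155). With voom precision weights on the reads all 4 passed. The shares of genes above are from the fit without these weights. The share of all genes called with voom weights is not given, here or below. A limma F test among the 7 lines passed for MT2A (F = 8.34, adjusted p = 0.00252) and MT1X (F = 5.45, adjusted p = 0.0191), as it did for 10.2% of genes. Without ATG7 replicate 1 the MT1X value was an adjusted p of 0.0724.

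Knockouts of partner genes were set against each other. None of the 6 differences passed, where 1.3% of genes were called between CALR and CANX, 5.03% between LMAN1 and MCFD2 and 0.425% between GABARAP and GABARAPL1. MT2A was at 7.77, 7.93 and 7.74 in the GABARAP line and 7.23, 7.21 and 7.38 in the GABARAPL1 line. The log2 difference was 0.54 (SE 0.23, limma unadjusted p = 0.0277, adjusted p = 0.566). MT1X differed by -0.48 (SE 0.30, adjusted p = 0.592) between CALR and CANX. The other 4 differences lay between -0.28 and -0.023. With voom weights, MT1X (-0.53, adjusted p = 0.0386) and MT2A (-0.43, adjusted p = 0.0294) passed as lower in LMAN1 than in MCFD2, the subunits of the cargo receptor. The 5.03% above is from the fit without these weights. In that fit the MT1X difference was -0.12, and it turned positive without LMAN1 replicate 3 (0.15) or MCFD2 replicate 2 (0.0091). That of MT2A stayed negative on leaving out replicates (-0.42 to -0.10).

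**Figure D2:**
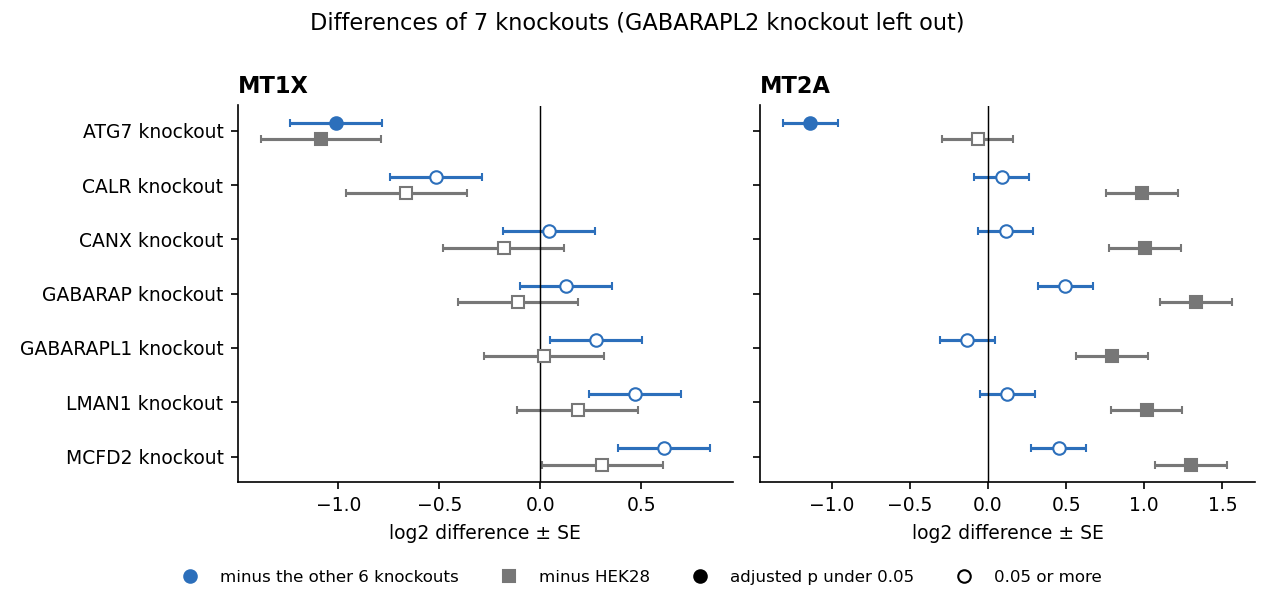
Log2 difference ± SE of MT1X (left) and MT2A (right) in 7 knockout lines, against the other 6 knockouts (blue circles) and against HEK28 (grey squares), with filled symbols for an adjusted p under 0.05. Only the ATG7 line passes against the other 6 (-1.01 and -1.14), while 6 lines pass as higher in MT2A against HEK28.

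Against HEK28 itself, MT2A was called higher in 6 knockout lines. The log2 differences were 0.98 in CALR (limma adjusted p = 0.00508), 1.01 in CANX (0.00563), 1.33 in GABARAP (0.00263), 0.79 in GABARAPL1 (0.0313), 1.01 in LMAN1 (0.0172) and 1.30 in MCFD2 (0.000584). Genes called higher made up 12%, 12.4%, 4.03%, 7.05%, 4.47% and 10.5% in these lines. The ATG7 line did not differ detectably (-0.067, SE 0.23, adjusted p = 0.879). All 7 comparisons share the HEK28 libraries, and HEK28 replicates 1 and 2, the low ones in MT2A, held 15 and 36 of its reads.

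HEK28 replicate 3, at 7.18, was within the range of the other knockouts. Without replicates 1 and 2 the 6 MT2A differences ran from 0.092 to 0.63, and that of the ATG7 line was -0.77. None of the 14 results passed then, in a fit where the lone HEK28 library is assumed to vary like the other groups. Without replicate 1 or 2 alone, 4 of the 14 passed. The MT2A call in LMAN1 then ended (0.86 and 0.82, adjusted p = 0.0827 and 0.0813), as it did without LMAN1 replicate 1 (0.88, 0.0918) or 3 (0.97, 0.0695). That in GABARAPL1 also ended (0.64 and 0.60, adjusted p = 0.156 and 0.164), as it did without any 1 of the GABARAPL1 libraries (0.74 to 0.83, 0.0630 to 0.106). Fitted on the compared samples alone, none passed. The share of unlisted predicted transcripts was high in the same libraries, as given above, and its part in the MT2A level was not tested.

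MT1X, which did not share this drop in HEK28, was called lower in the ATG7 line (-1.09, SE 0.30, limma adjusted p = 0.0219), where 4.25% of genes were called lower. The ATG7 libraries, up to 4.98, lay below those of HEK28, from 5.38 up, as held for 8.63% of genes. The call ended without HEK28 replicate 1 (-1.09, adjusted p = 0.0659) or 2 (-0.96, 0.0931) and without ATG7 replicate 1 (-0.78, 0.120). The other 6 MT1X differences ran from -0.66 in CALR (adjusted p = 0.127) to 0.31 in MCFD2 (0.509). With voom weights the CALR difference passed (-0.72, adjusted p = 0.0485).

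MT2A was lower in HEK28 than in its parental line, while the MT1X difference had the opposite sign and did not pass. MT2A was lower by 0.76 on the log2 scale (log2 difference -0.76, SE 0.23, limma adjusted p = 0.0130), and HEK28 replicate 3 at 7.18 overlapped with the parental libraries. The call ended without HEK28 replicate 1 (-0.61, adjusted p = 0.0728), HEK28 replicate 2 (-0.57, 0.0872) or parental replicate 1 (-0.62, 0.0709), and without HEK28 replicates 1 and 2 the difference was -0.061. For MT1X all 3 HEK28 libraries were above the parental ones, as held for 15.7% of genes, and the difference was 0.72 (SE 0.30, adjusted p = 0.0683). It passed without HEK28 replicate 3 (0.84, 0.0485) or parental replicate 3 (0.96, 0.0286). Genes called higher made up 16.8% and lower 15.2% in this comparison. The change in the MT1X to MT2A difference, 1.49, gave p = 0.2 in a two-sided exact permutation test, in which 3 against 3 libraries can give no less than 0.1.

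MT1F was seen most in HEK28 and MT1G most in the parental line, both from few reads. MT1F had 2, 5 and 4 reads in the HEK28 libraries, or 12.5, 11.4 and 12.4 CPM. The highest of the other 27 libraries was GABARAP replicate 1, at 10.6 from 6 reads. On the log2 scale the 3 HEK28 libraries stood above all others, which was so for 0.306% of the 16975 genes without a filter.

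Summed over libraries, MT1F had 11 reads in HEK28 (11.9 CPM, 95% Poisson interval 5.96 to 21.3) and 3 in the parental line (2.61, 0.539 to 7.64). Their ratio was 4.57 (95% interval from the read counts 1.21 to 25.5). In a fit without the filter on low values MT1F was higher in HEK28 than in the parental line (log2 2.10, limma adjusted p = 0.0310), as were 10.3% of genes. In that fit MT1F was lower than HEK28 in the ATG7 (-2.85, adjusted p = 0.0176), LMAN1 (-3.36, 0.0142) and MCFD2 (-2.61, 0.0173) lines, where 1.93%, 0.43% and 4.11% of genes were called lower. These rest on 2, 4 and 8 reads in the knockouts.

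Among knockouts MT1F had its highest summed level in the CALR line. It had 6, 10 and 31 reads there, or 8.89, 7.75 and 10.0 CPM, and 47 in all against 46 in the other 6 lines together. The ratio of CPM was 3.64 (95% interval from the read counts 2.37 to 5.59). That interval leaves out variation between libraries and lines, and the difference did not pass in limma (1.73, adjusted p = 0.106). Single libraries overlapped: GABARAP replicate 1 (10.6 CPM) was above all 3 CALR libraries, and CANX replicate 2 (9.81 CPM) above CALR replicates 1 and 2. The GABARAP line followed with 17 reads (7.56 CPM). The GABARAPL2 line had 7 (1.10 CPM, 0.443 to 2.27), of which replicate 1 held 6, and the ATG7 line had 2 (1.01 CPM).

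MT1G had 1, 5 and 6 reads in the parental libraries, or 6.05, 14.5 and 9.40 CPM, and 1 read in HEK28. The 3 parental libraries stood above all 27 others, as was so for 3.39% of genes without a filter. The parental level was 9.64 times that of HEK28 by the counts (95% interval 1.43 to 412) and 7.80 times that of the 7 knockouts without GABARAPL2 (3.65 to 15.6). In the fit without the filter the HEK28 minus parental difference was -1.97 (limma adjusted p = 0.159). The GABARAPL2 line had 2 reads. The ATG7 line had none in 1986103 reads, for which a floor of 3 reads is 1.51 CPM and the upper limit of the two-sided 95% Poisson interval 1.86 CPM. All 14 reads of the LMAN1 line came from replicate 3. No call on MT1F or MT1G in the GABARAPL2 line is offered at this depth.

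**Figure D3:**
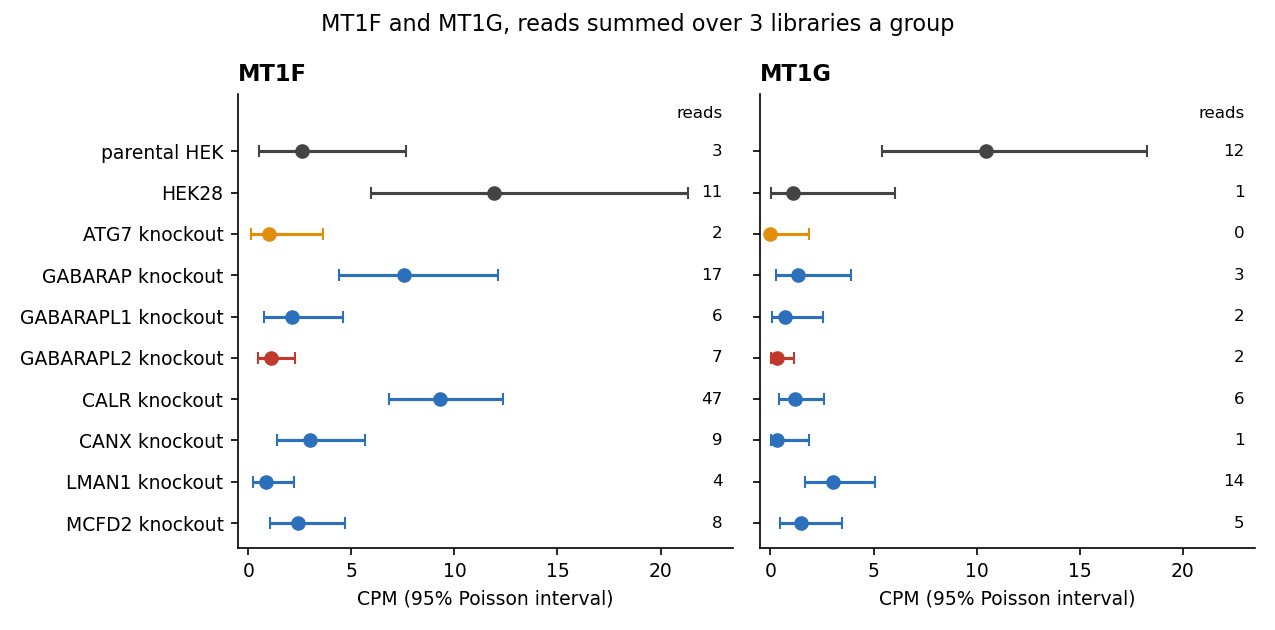
CPM of MT1F (left) and MT1G (right), summed over the 3 libraries of each group, with 95% Poisson intervals and the read numbers at the right. MT1F is highest in HEK28 (11.9), CALR (9.28) and GABARAP (7.56), and MT1G in the parental line (10.5).

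MTF1 and SLC30A1 gave no call in the GABARAPL2 line. MTF1 was at 3.37 ± 0.17 (SD, n = 3) there and 3.41 ± 0.32 in the 21 libraries of the other knockouts, a log2 difference of -0.038 (SE 0.22, limma adjusted p = 0.951). SLC30A1 was at 6.43 ± 0.26 and 5.51 ± 0.73, a difference of 0.92 in the direction opposite to that of MT1X (SE 0.46, adjusted p = 0.291). It passed with voom weights (0.79, adjusted p = 0.00343). In the fit without these weights, genes called higher and lower in this comparison made up 2.59% and 1.55% of those tested.

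Of 19 tested genes of zinc sensing and transport 0 were called higher and 1 lower, the importer SLC39A4 (-0.85, SE 0.23, limma adjusted p = 0.0392). Of 10 copper genes 1 was higher, COX11, which brings copper to cytochrome oxidase (0.85, SE 0.23, adjusted p = 0.0362), and 0 lower. Neither call held with no filter (0.0739 for SLC39A4 and 0.0501 for COX11) or without any 1 of the GABARAPL2 libraries (0.104 to 0.292 and 0.0737 to 0.302). That of SLC39A4 also ended without ATG7 replicate 3 (0.0501), CALR replicate 2 (0.0543) or MCFD2 replicate 2 (0.0511). None of 11 iron genes and none of 9 glucocorticoid-responsive genes passed. The median differences of these lists, 0.27, 0.15, 0.095 and 0.22, stood beside 0.058 over all genes. No other metallothionein, such as MT1A, MT1M or MT3, was listed in the table.

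The genes of thiol and oxidant defence (the NRF2 and glutathione list), which share cysteine chemistry with the metallothioneins, had 3 calls higher and 1 lower of 16. TXN, thioredoxin, was at 10.22 ± 0.15 (SD, n = 3) in the GABARAPL2 line and 8.41 ± 0.45 in the others, a difference of 1.80 (SE 0.22, limma adjusted p = 3.58e-05). ABCC1, which exports glutathione conjugates, differed by 1.81 (SE 0.38, adjusted p = 0.00750) and GSR, glutathione reductase, by 0.90 (SE 0.22, adjusted p = 0.0221). For these 3 genes the GABARAPL2 libraries lay above all 21 others, as held for 3.52% of genes. TKT, the pentose phosphate enzyme transketolase, was lower (-0.80, SE 0.16, adjusted p = 0.00512).

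Among 12 heat shock genes HSP90AA1 was lower (-0.38, SE 0.083, limma adjusted p = 0.0104) and the mitochondrial chaperonin HSPD1 higher (0.35, SE 0.090, adjusted p = 0.0238). The GABARAPL2 libraries of TKT and HSP90AA1 lay below those of all other knockouts, which held for 0.593% of genes, MT1X among them. Over all lists 5 genes were higher and 3 lower of 77. The count was 2, 2 and 1 without GABARAPL2 replicate 1, 2 or 3, and TXN passed each time. Each of the other 7 calls ended on leaving out at least 2 of the 3 GABARAPL2 libraries in turn. It was 15 (11 higher, 4 lower) fitted on the compared samples alone and 27 (21 higher, 6 lower) with voom weights.

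In the ATG7 line, too, MTF1 (0.19, SE 0.22, limma adjusted p = 0.791) and SLC30A1 (0.084, SE 0.46, adjusted p = 0.974) gave no call against the other 6 knockouts. Calls among the 77 list genes were 1 higher, where 0.434% of genes were, and 1 lower, both in iron handling. FTL, the ferritin light chain, was at 8.02 ± 0.13 (SD, n = 3) against 7.23 ± 0.40, a difference of 0.78 (SE 0.14, adjusted p = 0.00326). HMOX1, heme oxygenase 1, was lower (-1.37, SE 0.33, adjusted p = 0.0282). Its call ended without ATG7 replicate 1 (adjusted p = 0.220), 2 (0.0723) or 3 (0.0794), with no filter (0.0550) and with voom weights (0.122).

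Between HEK28 and the parental line 26 of the 77 list genes were called, 13 in each direction, which is close to the 16.8% higher and 15.2% lower over all genes. Of 10 copper genes 4 were higher and 0 lower, among them the copper chaperones ATOX1 (2.94, SE 0.28, limma adjusted p = 4.48e-08) and CCS (2.98, SE 0.35, adjusted p = 7.94e-07) and the copper-zinc superoxide dismutase SOD1 (2.83, SE 0.15, adjusted p = 3.97e-12). These 3 passed under all 13 alternatives. The fourth, COMMD1 (1.04, adjusted p = 0.0227), lost its call in 6 of them, among them voom weights (0.48, 0.494) and leaving out HEK28 replicate 1 (0.62, 0.182), parental replicate 1 (0.84, 0.102) or parental replicate 2 (0.99, 0.0613). Of 19 zinc genes 0 were higher and 3 lower. SLC30A1, the exporter, differed by -1.85 (SE 0.61, adjusted p = 0.0228), with HEK28 at 4.72 ± 1.70 and the parental line at 6.57 ± 0.38 (SD, n = 3). Without HEK28 replicates 1 and 2, where the lone HEK28 library is assumed to vary like the other groups, the difference was -0.032 (adjusted p = 0.981). The other 2 zinc calls also ended there: SLC39A13 went from -2.68 to -0.36 (0.680) and SLC39A9 from -2.26 to -1.52 (0.0846). Without replicate 1 or 2 alone the adjusted p of SLC30A1 was 0.0679 and 0.191. It also ended without parental replicate 2 (0.0695) or 3 (0.0620). MTF1 differed by -0.41 (adjusted p = 0.296). Of the other lists, 1 iron gene was higher and 2 lower of 11, 5 of thiol and oxidant defence were higher and 1 lower of 16, 3 heat shock genes were higher and 2 lower of 12, and 5 of 9 glucocorticoid-responsive genes were lower.

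No tested gene close to the metallothioneins was called in the GABARAPL2 line. The family spans 56565049 to 56684196 of chromosome 16, on the long arm that also holds GABARAPL2. Of 15 tested genes within 1 Mb of it, other than the family, 0 were called (1 with an unadjusted p under 0.05) and the median difference was 0.23. In the rest of 16q 5 were higher and 3 lower of 203, or 1.48% lower, near the 1.55% over all genes. On one side the nearest tested genes were BBS2 (0.76, limma adjusted p = 0.437), OGFOD1 (-0.22, 0.647) and NUDT21 (0.97, 0.101), at 44.8 to 113 kb from the family. On the other they were NUP93 (0.25, 0.710), HERPUD1 (0.30, 0.573) and CPNE2 (0.23, 0.863), at 45.9 to 408 kb. NUDT21, a factor of mRNA 3' end cleavage, was that gene (limma unadjusted p = 0.00758 in the model of 30 samples). It passed with voom weights, with an offset of 2 reads and with the compared samples alone (limma adjusted p = 2.60e-07, 0.0425 and 0.00407).

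**Figure D4:**
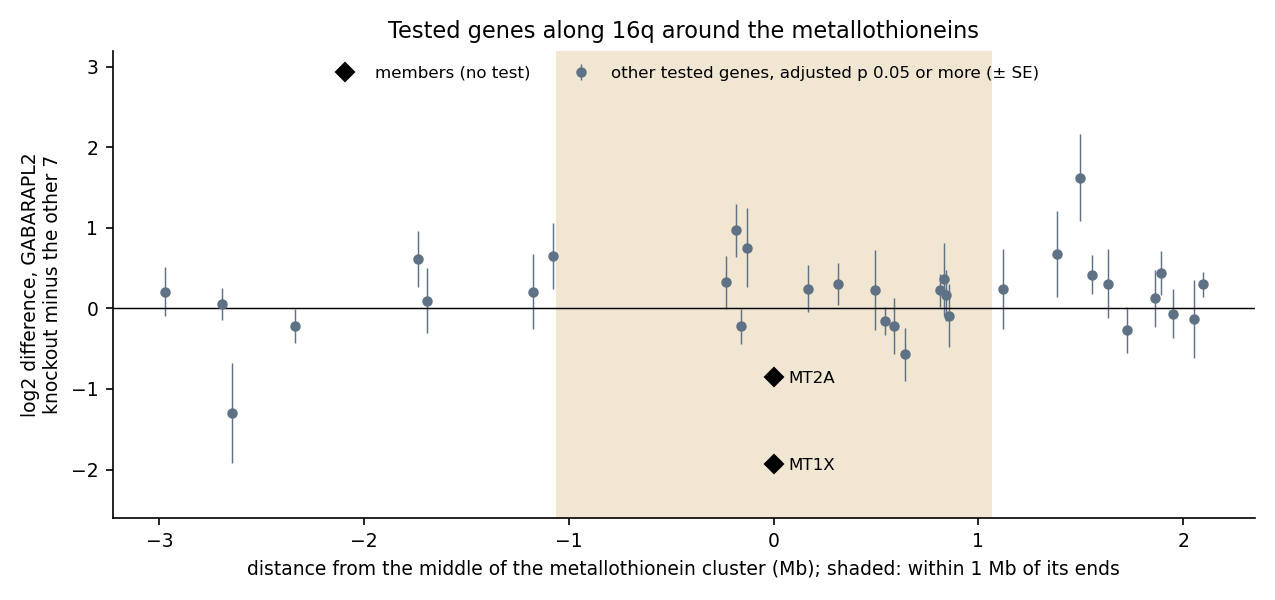
Log2 difference, GABARAPL2 knockout minus the other 7 knockouts, of tested genes (± SE) by distance in Mb from the middle of the metallothionein cluster, with the members as diamonds and the window of 1 Mb beyond its ends shaded. MT2A (-0.85) and MT1X (-1.93) lie below all 15 neighbours in the window. The members were selected for being low in this line, so their place is a description and no test.

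The tested genes most like the mean of MT1X and MT2A over 30 libraries, by Pearson r, were ACTN1 (0.763), an actin crosslinker, UNG (0.745), a uracil DNA glycosylase, NFATC4 (0.712), a calcineurin-controlled transcription factor, RXRB (0.696), a nuclear receptor, and KIAA1328 (0.690). These are the highest of 11295 values and part of the likeness comes from the GABARAPL2 line. Without it their r over 27 libraries was 0.697, 0.622, 0.587, 0.488 and 0.521. None lies on chromosome 16.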

How the data were processed

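The authors deposited 1 table of log2 values for 30 samples, without a stated unit. Build hg38 and the tools TopHat2, Bowtie, cutadapt and FastQC are named in the submitters' processing notes. Counter, annotation and normalisation: not given in the sources used here. From the steps of the deposited log2 values, each is log2 of (reads + 0.5) over a divisor per gene and a size per library. Reads were read back for 16938 genes (100% of 447838 values up to 100 reads whole within 0.1) and not for 37. Gene positions came from GENCODE 29. No listed gene had fewer than 18 reads in all.

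Values were tested with limma 3.58.1 (R 4.3.3; trend, robust), 30 samples in 1 model with 1 coefficient per group, Benjamini-Hochberg adjusted within each comparison at 0.05, two-sided. The filter kept 11295 genes with at least 15.4 CPM, 10 reads at the median depth, in 3 libraries. Simulated data for ATG7 against the other 6 knockouts (11258 genes) held increases only, with the same spread for every gene (dispersion 0.0391). In them 42% of 2-fold and 96% of 4-fold increases were recovered. Unchanged genes made up 13.8% of calls, more than the threshold of 0.05 names. Decreases were not simulated. Replicate pairs differed by a chi-square of 1.52 or more per degree of freedom, so none was merged. Members and lists were chosen with earlier results of these data known. Named genes were all members, GABARAPL2, MTF1, SLC30A1, up to 4 called genes of a list with the smallest adjusted p, the 3 nearest tested genes on each side of the family and the 5 with the highest r; for HEK28 against the parental line only examples of the zinc and copper lists are named. Blood (4 of 6 genes listed), fibroblast (1 of 6) and epithelial (3 of 6) markers summed to at most 75.0, 31.3 and 183 CPM in a library.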

Additional observations from a re-analysis of the deposited data

Results flagged for a closer look

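The difference from HEK28 was not the same in the ATG7 line as in the other 6 knockouts, tested as ATG7 minus the other 6 in the limma model. MT2A differed by -1.14 (adjusted p = 0.000744), with all 3 ATG7 libraries below all 18 libraries of the other 6 knockouts. HEK28 replicates 1 and 2, at 6.17 and 6.08, were lower still, while HEK28 replicate 3, at 7.18, lay above all 3 ATG7 libraries. Against HEK28 itself the ATG7 line did not differ detectably in MT2A (-0.067, limma adjusted p = 0.879). Without HEK28 replicates 1 and 2 that difference was -0.77. MT1X differed by -1.01 (adjusted p = 0.0198), and this call ended without ATG7 replicate 1 (-0.70, adjusted p = 0.306).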

How the results depend on the processing

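Replicate numbers did not pair the samples: 19 of 135 same-numbered pairs correlated over 0.1, and 9 of 30 samples were closest to their own number. With the replicate block the calls were 1 of 2 for HEK28 against the parental line, 7 of 14 against HEK28, 2 of 14 against the other 6 knockouts, 0 of 6 pairs, 2 of 2 in the F test, 8 list genes and 0 neighbours in the GABARAPL2 line, 2 list genes in the ATG7 line and 27 for HEK28 against the parental line; no call on a member changed.

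Calls on members for HEK28 against the parental line (1) ran from 0 to 2 on leaving out replicates and were 2 with no filter, 0 on the compared samples and 0 without HEK28 replicates 1 and 2. Those against HEK28 (7) ran from 4 to 7 and were 0 on the compared samples and 0 without both replicates. Those against the other 6 (2) ran from 1 to 2 and were 6 with voom weights and 4 on the compared samples; the F test gave 1 to 2, and pairs 2 with voom. List calls in the GABARAPL2 line (8) ran from 1 to 9, with 27 under voom and 15 on the compared samples. In the ATG7 line (2) they ran from 1 to 2, with 4 under voom and 1 with no filter. For HEK28 against the parental line (26) they ran from 22 to 37, with 12 on the compared samples. Neighbour calls (0) were 2 with voom, 1 with an offset of 2 reads and 1 on the compared samples. The causes were not tested. List alternatives for the ATG7 and HEK28 comparisons, and leaving out GABARAPL2 libraries below, were added after seeing the data.

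Signs reversed only among differences that did not pass. MT1X in GABARAPL1 minus HEK28 was -0.041 under quantile normalisation, -0.074 with voom and -0.016 with the offset of 2 reads, and -0.15 to 0.14 on leaving out replicates. In LMAN1 minus HEK28 it was -0.15 with voom and -0.12 to 0.46. Without HEK28 replicates 1 and 2 it was 0.052 in CANX and 0.12 in GABARAP minus HEK28, the latter -0.23 to 0.012 on leaving out replicates. Other ranges were -0.26 to 0.28 (MT2A, ATG7 minus HEK28), -0.085 to 0.12 (MT1X, CANX minus the other 6), -0.011 to 0.30 (MT2A, LMAN1 minus the other 6), -0.42 to 0.15 (MT1X, LMAN1 minus MCFD2), -0.23 to 0.039 (MT1X, GABARAP minus GABARAPL1), -0.089 to 0.075 and 0.0082 under quantile normalisation (MT2A, CALR minus CANX), -0.10 to 0.056 (MTF1 in the GABARAPL2 line), and, in ATG7, -0.15 to 0.47 (MTF1) and -0.10 to 0.33 (SLC30A1).

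The mean of the 2 members in the GABARAPL2 line minus the other 9 groups, -1.31, ran from -1.48 to -1.17. Quantile normalisation moved the median of all genes by up to -0.11 (MCFD2 minus HEK28). ATG7 against the other 6 knockouts was the only comparison simulated, with increases only. As 42% of 2-fold increases were recovered, a result that did not pass there shows no equality. Without HEK28 replicates 1 and 2 that group is 1 library, assumed to vary like the other groups.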
